A study of Mus musculus with 7 samples.

Results

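A set of 36 inflammatory genes was followed in primary mouse articular chondrocytes, the cells of joint cartilage, taken from the femoral head and cultured for 24 h with BMP2, TGFβ1 or vehicle. The set holds chemokines (Ccl2, Ccl5, Ccl7, Ccl20, Cxcl1, Cxcl2, Cxcl5, Cxcl10, Cxcl12, Cxcl16), NF-κB subunits (Nfkb1, Nfkb2, Rela, Relb), their inhibitors and regulators (Nfkbia, Nfkbie, Nfkbiz, Bcl3, Tnfaip2, Tnfaip3, Tnip1, Birc3), effectors (Icam1, Vcam1, Lcn2, Saa3, C3, Nos2) and cytokines with their receptors (Il1b, Il1rn, Il1r1, Tnfrsf1a, Tnfrsf1b, Tnfrsf11b, Tnfsf11, Csf1). Members were chosen by gene name, and all 36 are among the 52459 gene names with counts. Enough counts for a test were found for 29 of the 36, and for 13367 genes in all. RNA was measured by bulk sequencing in 7 libraries: 3 with BMP2 at 100 ng/ml (replicates 1, 2 and 3), 2 with TGFβ1 at 5 ng/ml (replicates 1 and 3) and 2 with vehicle (replicates 1 and 2). All 3 groups were digested from the tissue and grown in serum-containing medium by the same protocol; the sources used here give no strain, age or genotype, nor do they say whether the replicates are separate animals or cultures, so p-values measure the spread between these libraries, which may be technical.

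NF-κB is a family of dimeric transcription factors held in the cytoplasm by IκB proteins. Signals such as TNF and interleukin 1 activate the IκB kinases, IκB is degraded, and the dimers enter the nucleus and switch on chemokines, adhesion molecules and the genes of their own inhibitors. In cartilage the pathway is known for driving matrix breakdown in arthritis, and chondrocytes also make the osteoclast factors RANKL (Tnfsf11), its decoy receptor osteoprotegerin (Tnfrsf11b) and M-CSF (Csf1). TGFβ1 and BMP2 are ligands of 1 superfamily that signal through different SMAD proteins.

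Promoter windows of the members were searched for the letters that NF-κB dimers are known to bind. RefSeq promoter windows of the GRCm38.p6 build, running from 250 bases before to 50 bases after a transcription start, were available for 25 of the 36 members. The NF-κB consensus, searched on both strands, was present in a window of 13 of these 25 members (52%), against 9.55% of the 27025 genes with a window. The 13 were Bcl3, Ccl20, Csf1, Cxcl1, Cxcl2, Cxcl10, Il1r1, Nfkb2, Nfkbia, Nfkbie, Tnfaip2, Tnfaip3 and Tnip1. A match is a run of letters and not a measured binding site. Of the members with a window, a match was held by 4 of the 10 that were higher with TGFβ1 than with vehicle, by 1 of the 2 that were lower and by 5 of the 8 tested members that did not pass the threshold. The stretches below, from 200 bases before the start to 20 after it and read along the gene's strand, are shown because the 5 genes responded differently: Ccl20, Nfkbia and Bcl3 were higher with TGFβ1, Csf1 was lower and Tnip1 passed the threshold in no comparison. Capitals mark the consensus match.
Ccl20 (chr1:83116566-83116785, plus strand): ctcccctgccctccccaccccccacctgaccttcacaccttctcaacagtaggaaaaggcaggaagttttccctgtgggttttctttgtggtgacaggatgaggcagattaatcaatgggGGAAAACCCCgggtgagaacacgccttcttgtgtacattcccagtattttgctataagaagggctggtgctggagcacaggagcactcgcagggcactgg
Nfkbia (chr12:55492628-55492847, minus strand): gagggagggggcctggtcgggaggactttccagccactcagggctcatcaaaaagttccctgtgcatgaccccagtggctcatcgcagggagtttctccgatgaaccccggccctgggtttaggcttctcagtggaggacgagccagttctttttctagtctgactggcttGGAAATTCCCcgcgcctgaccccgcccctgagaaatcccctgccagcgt
Bcl3 (chr7:19822736-19822955, minus strand): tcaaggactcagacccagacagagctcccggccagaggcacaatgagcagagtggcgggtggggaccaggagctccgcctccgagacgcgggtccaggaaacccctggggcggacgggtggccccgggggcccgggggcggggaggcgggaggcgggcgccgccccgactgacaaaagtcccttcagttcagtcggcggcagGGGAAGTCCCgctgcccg
Csf1 (chr3:107760450-107760669, minus strand): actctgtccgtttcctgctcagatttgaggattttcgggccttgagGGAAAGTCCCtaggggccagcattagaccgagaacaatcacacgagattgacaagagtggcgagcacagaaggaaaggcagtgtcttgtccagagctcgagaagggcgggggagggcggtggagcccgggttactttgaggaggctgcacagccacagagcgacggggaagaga
Tnip1 (chr11:54962921-54963140, minus strand): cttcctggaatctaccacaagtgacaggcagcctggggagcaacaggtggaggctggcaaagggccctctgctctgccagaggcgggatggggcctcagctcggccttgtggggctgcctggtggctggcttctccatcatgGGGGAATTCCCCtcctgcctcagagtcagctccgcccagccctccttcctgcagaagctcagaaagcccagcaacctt

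The match began 80 bases before the start in Ccl20, 29 before it in Nfkbia, 154 before it in Csf1 and 58 before it in Tnip1, and 3 bases after it in Bcl3.

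Total counts per library ran from 6747997 to 10686885 with BMP2, were 18047765 and 16271793 with TGFβ1, and were 6885056 and 7387051 with vehicle. The TGFβ1 libraries stood apart in composition: ribosomal protein genes held 1.03% to 1.35% of counts with BMP2, 6.12% and 6.16% with TGFβ1, and 1.01% and 1.07% with vehicle. Their fold changes also followed transcript length. Genes whose principal transcript is at most 750 bases had a median log2 fold change of 0.08 for BMP2 against vehicle and 2.94 for TGFβ1 against vehicle, and those with over 5000 bases had medians of -0.06 and -0.45. The treatment and this difference between libraries cannot be told apart. TGFβ1 results on members with short transcripts are therefore given both as fitted and with an offset that removes the trend on principal transcript length. Ratios taken from the counts of Ccl5 and Ccl20 are an exception and carry no offset. Cell type markers are given as fitted only. All 14 chondrocyte markers, such as Col2a1 and Acan, were detected, with a summed level of 52100 to 59300 CPM (counts scaled to a common effective library size) with BMP2, 38700 and 44800 with TGFβ1, and 59600 and 59700 with vehicle. Of 15 leukocyte and macrophage markers 9 could be tested, and the sum of all 15 was 22.0 to 24.8 CPM with BMP2, 80.6 and 73.7 with TGFβ1, and 33.6 and 43.7 with vehicle. The pan-leukocyte gene Ptprc stayed under 0.48 CPM in every library. The markers did not move together: with TGFβ1 against vehicle Cd68, Tyrobp, Fcer1g and Cd52 were higher, Adgre1 and Mrc1 were lower and the other 3 did not pass. The 4 that were higher have deposited lengths of 667 to 1257 bases, and the 2 that were lower have 3245 and 6371. This split runs the same way as the length trend, whose part in it was not tested. Cd52 had 13, 3 and 1 counts with BMP2, 68 and 95 with TGFβ1, and 2 and 3 with vehicle. Tyrobp and Fcer1g, adaptors of myeloid receptors with short transcripts, lay between 13.4 and 19.9 CPM with TGFβ1 and at most 2.27 CPM elsewhere, and without these 2 genes the sum was 18.8 to 21.5 CPM with BMP2, 50.1 and 37.7 with TGFβ1, and 30.5 and 39.8 with vehicle. The macrophage receptor gene Mrc1 had 0.686 to 1.03 CPM with BMP2, 0.147 and 0.153 with TGFβ1, and 0.535 and 1.44 with vehicle. B and plasma cell markers, of which 2 of 7 could be tested, summed to 9.86 to 14.3 CPM with BMP2, 0.883 and 0.534 with TGFβ1, and 9.49 and 10.9 with vehicle. Neutrophil markers, with 3 of 11 tested and Ly6g, Mpo and Cxcr2 at 0 in every library, summed to 4.91 to 11.1 CPM with BMP2, 7.21 and 4.58 with TGFβ1, and 2.14 and 1.91 with vehicle. Synovial and other fibroblast markers, with 5 of 8 tested, summed to 22.4 to 24.3 CPM with BMP2. Their sums were 27.4 and 38.8 with TGFβ1, and 41.6 and 39.4 with vehicle. Among them Col15a1 was lower with both ligands than with vehicle, and Htra4 was higher with TGFβ1. Endothelial markers, with 1 of 8 tested, stayed at or under 2.12 CPM in every library. The part of these cells in the results below was not tested, and in bulk RNA fewer cells of a type cannot be told apart from less RNA per cell.

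**Figure D1:**
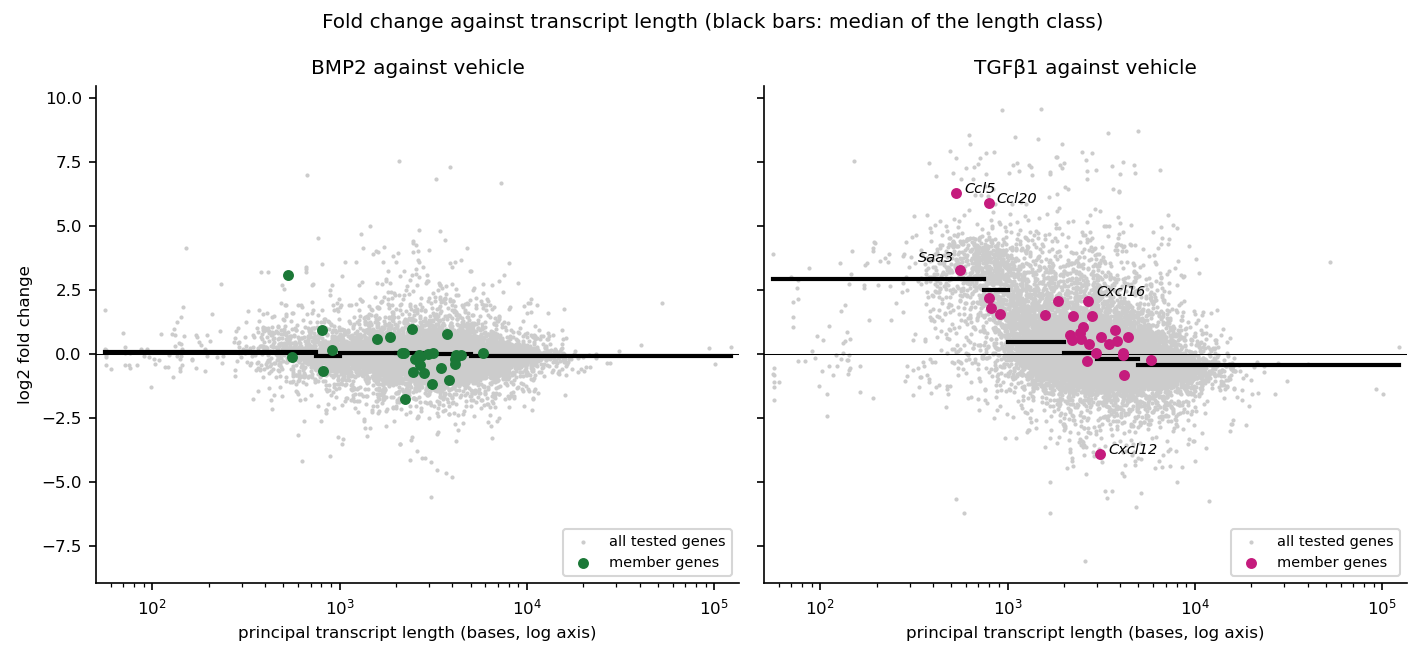
Log2 fold change of every tested gene (grey) and of the member genes (colour) against principal transcript length in bases on a log axis, for BMP2 against vehicle (left) and TGFβ1 against vehicle (right). Black bars are medians of the length classes; they lie near 0 with BMP2 and fall from 2.94 in the shortest class to -0.45 in the longest with TGFβ1. Ccl20 is left out of the BMP2 panel because it had 0 counts in all BMP2 libraries.

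The classic acute inflammatory genes were near the floor in these cells. Il1b, encoding interleukin 1β, and Cxcl5 had 0 counts in all 7 libraries, and a count of 0 allows up to 0.221 to 0.401 CPM per library. The neutrophil-attracting chemokine genes Cxcl1 and Cxcl2 had 13 and 6 counts over all libraries, the interferon-induced chemokine Cxcl10 had 16, inducible nitric oxide synthase Nos2 had 4, and complement C3 had 43. These 7 members did not pass the filter on low counts, and no difference between groups was detectable for them at this depth. Of the 29 that passed, Ccl2, Ccl5, Ccl7 and Ccl20 did so only through the TGFβ1 libraries, so they had to be high there, and their tests are no support for a rise. Per kilobase of principal transcript, Lcn2 had the highest mean among tested members with BMP2, at 66.8 ± 1.28 CPM per kilobase, ahead of Csf1 at 47.5 ± 3.87 (SD, n = 3). With TGFβ1 Lcn2 was at 177 ± 80.9 and Tnfrsf11b at 146 ± 7.0 (SD, n = 2), which do not differ beyond their spread. With vehicle the same genes were at 59.2 ± 3.14 and 51.9 ± 2.73 (SD, n = 2). The deposited length counts every annotated exon of a gene once, and by that length Lcn2 reads lower: Csf1 was highest with BMP2, at 37.6 ± 3.06 CPM per kilobase, against 23.3 ± 0.448 for Lcn2.

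Counting both directions, the shares of members that passed were close to those of all tested genes. With TGFβ1 15 of the 29 tested members rose and 2 fell relative to vehicle, at an adjusted p under 0.05 in edgeR's quasi-likelihood test. The background was high: 56.2% of all tested genes passed this comparison, 30.4% higher and 25.8% lower, against 58.6% of the members, 51.7% higher and 6.9% lower. Without the 4 members that passed the filter only through TGFβ1 libraries, 11 of 25 rose and 2 fell, or 44% and 8%. The median log2 fold change was 0.75 over the members and -0.02 over all tested genes. With BMP2 no member rose and 3 fell relative to vehicle, or 10.3%, where 11.5% of all tested genes passed, 5.33% higher and 6.15% lower. At an unadjusted p under 0.05, 1 member was higher and 4 were lower with BMP2, and DESeq2 called 0 higher and 4 lower. Both comparisons share the vehicle libraries.

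Length divides the TGFβ1 result. All 5 tested members with a deposited length up to 2000 bases (Ccl2, Ccl5, Ccl7, Ccl20 and Nfkbia) rose with TGFβ1, a class in which 59.4% of all tested genes rose, but 4 of these 5 passed the filter only through TGFβ1 libraries. Of the 24 tested members above 2000 bases 10 rose and 2 fell, against 24.2% higher and 29.3% lower for all such genes. The deposited length hides that Saa3 and Lcn2 have short messengers: 2606 and 2623 bases of annotated exons hold principal transcripts of 555 and 915 bases. By principal transcript, all 6 tested members of up to 1000 bases (Ccl2, Ccl5, Ccl7, Ccl20, Lcn2 and Saa3) rose, in a class where 77.6% of genes did, and the same 4 are among them. Once the trend on principal transcript length was removed, 13 members were higher and 3 lower with TGFβ1, where 26.3% and 24.2% of all tested genes were. Without the 4 members that passed the filter only through TGFβ1 libraries, 11 of 25 were higher and 3 lower with this offset, or 44% and 12%. Of the 15 rises 11 were kept: Ccl5, Ccl20, Cxcl16, Nfkbia, Bcl3, Nfkb2, Rela, Icam1, Tnfrsf1a, Tnfrsf11b and Tnfsf11. Ccl5 and Ccl20 are among those 4 members, so their place in this list is no support for a rise. Ccl2, Ccl7 and Saa3 no longer passed and Lcn2 passed in the other direction. With the planned offset for deposited length, Saa3 and Lcn2 still passed as higher with TGFβ1.

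**Figure D2:**
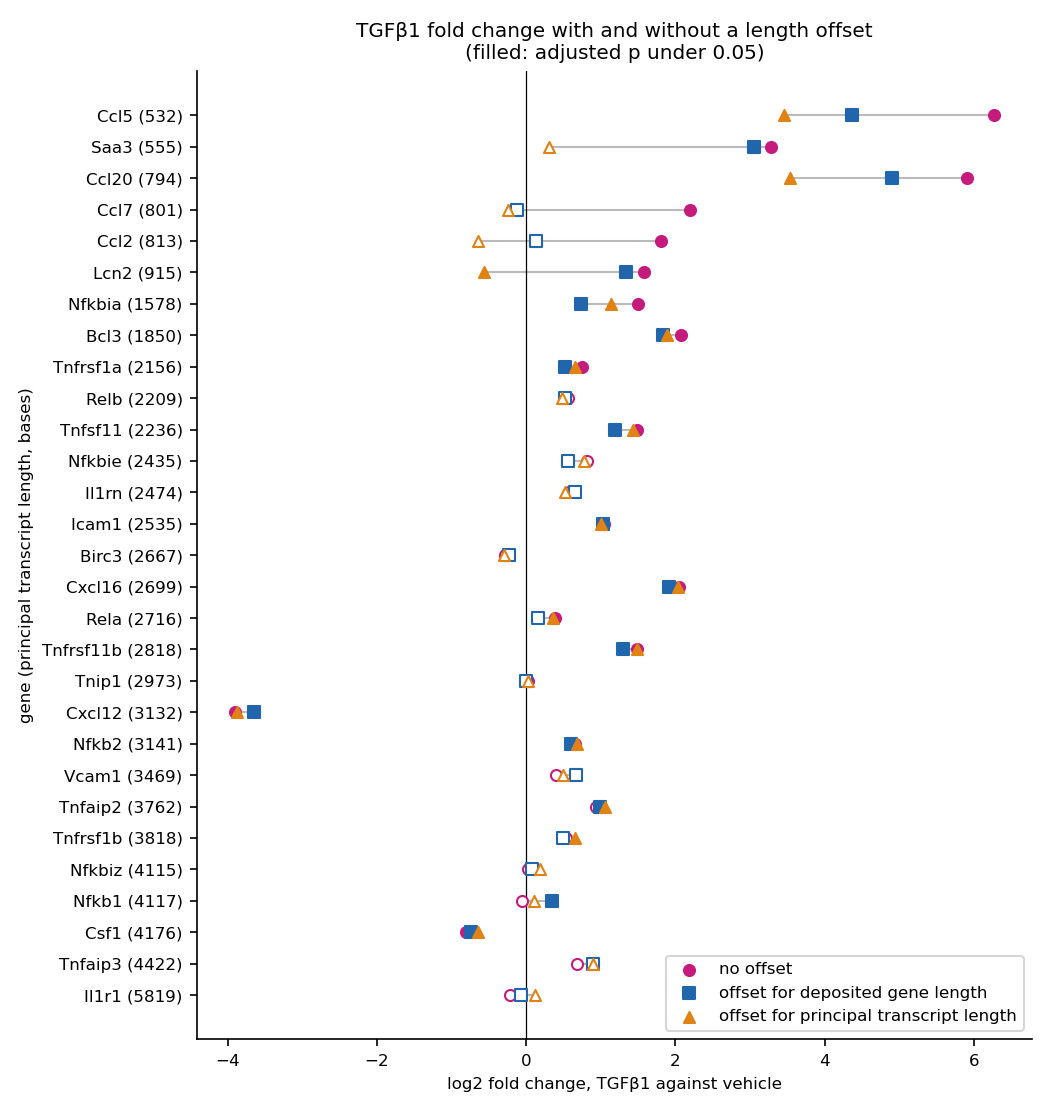
Log2 fold change for TGFβ1 against vehicle of the 29 tested members (rows, ordered by principal transcript length), with no offset (circles), with an offset for deposited gene length (squares) and with one for principal transcript length (triangles). Filled symbols have an adjusted p under 0.05. The symbols lie far apart for the 6 genes at the top, with transcripts up to 1000 bases, and close together for most longer genes: Saa3 moves between 3.28 and 0.31, Cxcl16 between 2.05 and 2.03 with the principal transcript offset.

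Among the chemokines, Ccl5 and Ccl20 were highest with TGFβ1, whose libraries hold 155 of the 175 Ccl5 counts and 121 of the 122 Ccl20 counts. Ccl5, encoding RANTES, an attractant of T cells and monocytes, had 1.12, 0.398 and 0.282 CPM in BMP2 replicates 1, 2 and 3, 5.08 and 6.57 CPM in TGFβ1 replicates 1 and 3, and 0.134 and 0 CPM in vehicle replicates 1 and 2. Every TGFβ1 library lay above every other. The vehicle libraries hold 1 Ccl5 count in all, and the ratio of TGFβ1 to vehicle was 92.0 with a 95% exact counting interval of 16.3 to 3660. Ccl20, the ligand of the lymphocyte and dendritic cell receptor CCR6, had 0 CPM in each BMP2 library, 6.03 and 2.98 CPM with TGFβ1, and 0.134 and 0 CPM with vehicle. For Ccl20 the ratio of TGFβ1 to vehicle was 71.8 (12.6 to 2860), again against 1 vehicle count. For Ccl5 with BMP2, 19 counts against the 1 of vehicle give 10.1 (1.60 to 419), and the test did not pass (adjusted p = 0.12). Such intervals cover counting error only, and the ratios are not corrected for the trend on transcript length. Without vehicle replicate 1 the vehicle group holds 0 counts of either gene. Since both genes passed the filter only through the TGFβ1 libraries, these values are a description of the libraries and no p is given for TGFβ1.

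The monocyte attractants Ccl2 (MCP-1) and Ccl7 (MCP-3), neighbours on chromosome 11, were low throughout. Ccl2 had 0.0858, 0.663 and 0.752 CPM with BMP2, 3.16 and 2.14 CPM with TGFβ1, and 0.535 and 0.957 CPM with vehicle. Ccl7 had 0.600, 1.59 and 0.564 CPM with BMP2, 2.13 and 1.99 CPM with TGFβ1, and 0.401 and 0.478 CPM with vehicle. The TGFβ1 libraries were the highest for both genes. Both also passed the filter only through those libraries. The log2 fold change for TGFβ1 against vehicle was 1.80 ± 0.58 (SE) for Ccl2 and 2.19 ± 0.58 for Ccl7. Both passed the threshold with no offset, but the filter had already required them to be high in the TGFβ1 libraries. These tests are therefore no support for a rise, and no p is given for them. With the principal transcript offset the values were -0.64 (adjusted p = 0.42) and -0.25 (adjusted p = 0.784), so neither direction holds beside genes of like length. The Ccl2 call was also lost without TGFβ1 replicate 1 (1.49), vehicle replicate 1 (1.42) or vehicle replicate 2 (2.28), and the Ccl7 call without vehicle replicate 1 (2.04).

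The chemokines with longer transcripts, Cxcl12 and Cxcl16, moved in opposite directions with TGFβ1. Cxcl12, encoding SDF-1, which retains CXCR4-bearing progenitors and leukocytes, had 3.77, 3.84 and 3.76 CPM with BMP2, 0.294 and 0.840 CPM with TGFβ1, and 9.23 and 7.89 CPM with vehicle. The 3 groups did not overlap, and the gene fell with both ligands. The log2 fold change was -1.17 ± 0.25 (SE, adjusted p = 0.0123) for BMP2 and -3.90 ± 0.35 (adjusted p = 6.44e-06) for TGFβ1, each against vehicle. The BMP2 call was lost without vehicle replicate 1 (-1.05) or vehicle replicate 2 (-1.28), and the TGFβ1 value moved to -3.32 when TGFβ1 replicate 1 was left out and to -4.80 when TGFβ1 replicate 3 was, past the threshold in both. Cxcl16, a membrane-bound chemokine and scavenger receptor, had 1.03, 1.19 and 1.03 CPM with BMP2, 7.28 and 4.81 CPM with TGFβ1, and 1.20 and 1.67 CPM with vehicle. It rose with TGFβ1 by 2.05 ± 0.33 on the log2 scale (SE, adjusted p = 4.28e-04) and by 2.03 with the principal transcript offset. Its log2 fold change with BMP2 was -0.43, which did not pass. Of the exon bases of Cxcl16, 18.3% lie over exons of Zmynd15 on the opposite strand; whether the counting used strand is not given.

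**Figure D3:**
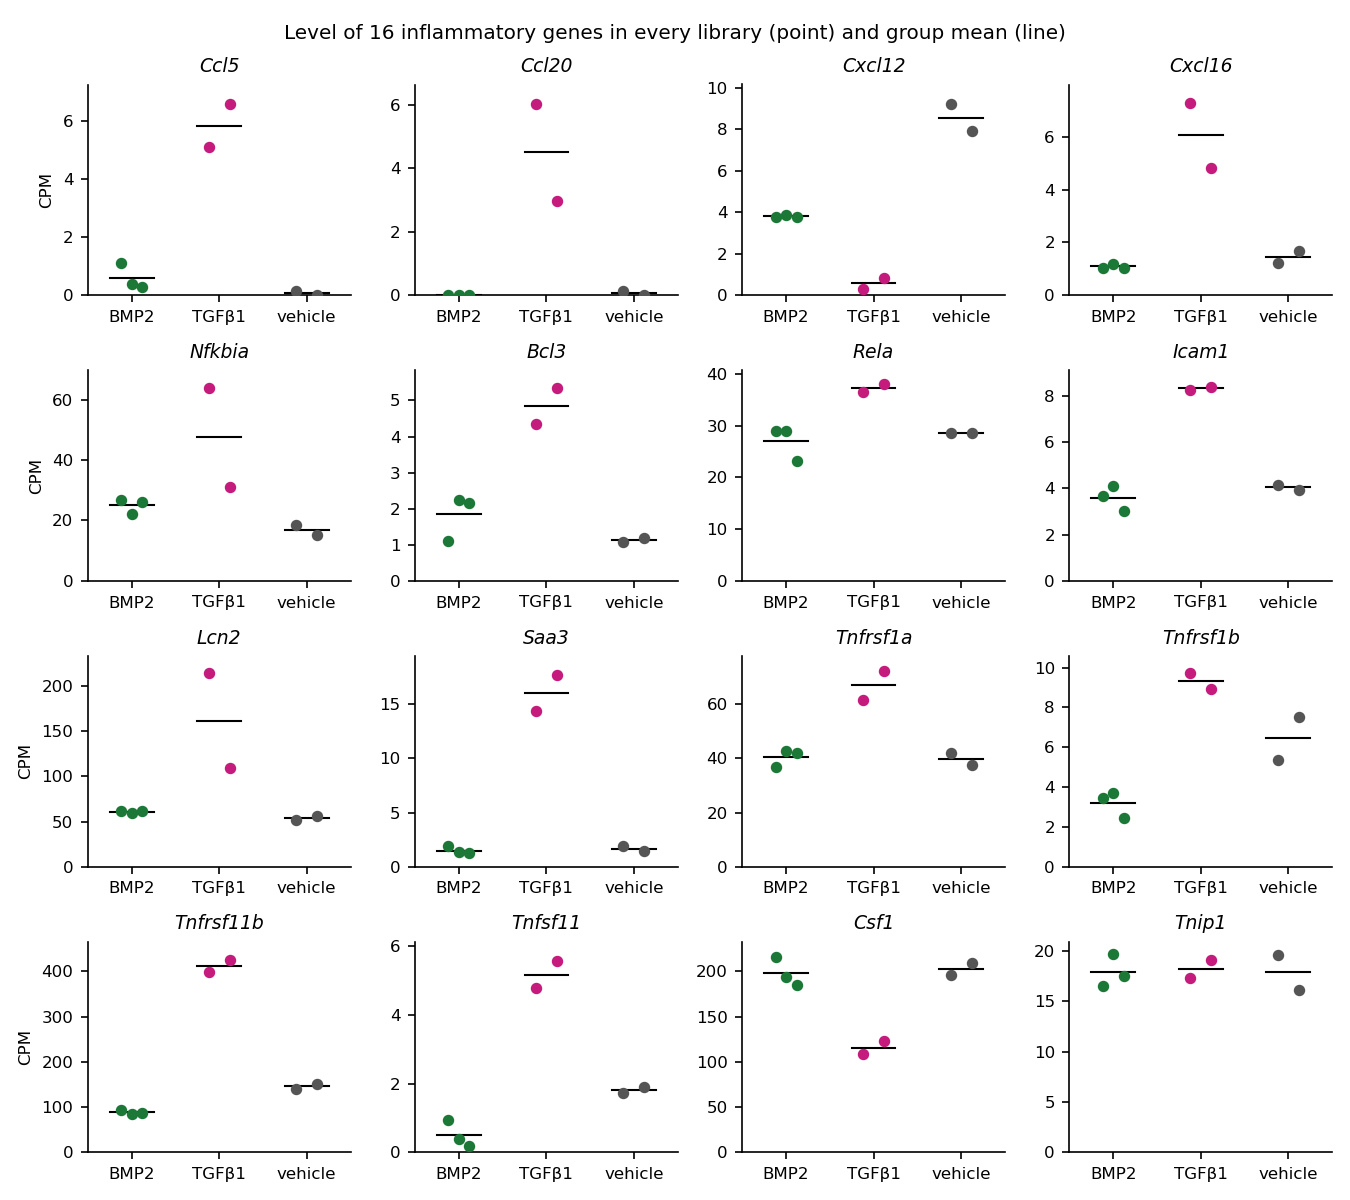
CPM of 16 members in each library (points) with the group mean (line), for BMP2 (n = 3), TGFβ1 (n = 2) and vehicle (n = 2), each panel on its own linear axis from 0. TGFβ1 points stand above all others for Ccl5, Ccl20, Cxcl16, Saa3 and Tnfrsf11b and below all others for Cxcl12 and Csf1, while the Tnip1 points overlap.

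Of the 4 NF-κB subunit genes, 2 rose with TGFβ1, where 30.4% of all tested genes did, and none passed with BMP2, where 11.5% did. Nfkb1, encoding p105 and p50, had 33.4, 33.1 and 31.9 CPM with BMP2, 36.8 and 36.3 CPM with TGFβ1, and 36.4 and 39.7 CPM with vehicle, and passed neither comparison with vehicle. Rela, the transactivating p65 subunit, had 29.0, 28.9 and 23.1 CPM with BMP2, 36.4 and 38.0 CPM with TGFβ1, and 28.6 and 28.6 CPM with vehicle. The TGFβ1 libraries were the highest, with a difference from vehicle of 0.38 ± 0.14 on the log2 scale (SE, adjusted p = 0.0395). That call was lost in DESeq2 (adjusted p = 0.11) and without any one of BMP2 replicate 2, either TGFβ1 replicate or either vehicle replicate, with values of 0.34 to 0.42. Nfkb2, encoding p100 and p52 of the non-canonical branch, had 8.41, 7.16 and 6.02 CPM with BMP2, 9.20 and 12.9 CPM with TGFβ1, and 6.28 and 7.66 CPM with vehicle. It rose with TGFβ1 by 0.66 ± 0.24 (SE, adjusted p = 0.0347), and the call was lost in DESeq2 (adjusted p = 0.0693) and without TGFβ1 replicate 3 (0.40), vehicle replicate 1 (0.48) or vehicle replicate 2 (0.81). Relb, the partner of p52, ranged from 3.18 to 6.69 CPM with BMP2, 6.55 to 8.78 CPM with TGFβ1 and 4.78 to 5.62 CPM with vehicle, with a log2 fold change for TGFβ1 of 0.56 that did not pass. Other genes on the opposite strand overlap 18.1% of Nfkb2 exon bases.

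Of the 8 genes made up of the inhibitors and regulators and Tnfaip2, Nfkbia and Bcl3 rose with TGFβ1 and 6 did not pass. That share is not above the 30.4% of all tested genes. Nfkbia, encoding IκBα, the inhibitor that NF-κB itself induces, had 26.9, 22.1 and 26.0 CPM with BMP2, 63.9 and 31.0 CPM with TGFβ1, and 18.5 and 15.1 CPM with vehicle. No group overlapped another, and the TGFβ1 libraries differed from each other by more than any BMP2 library did from vehicle. The log2 fold change for TGFβ1 was 1.50 ± 0.29 (SE, adjusted p = 0.00127) and 1.13 with the principal transcript offset; leaving out TGFβ1 replicate 1 gave 0.89, and leaving out TGFβ1 replicate 3 gave 1.94. For BMP2 it was 0.58 ± 0.28 (adjusted p = 0.219). The call depended on which libraries and genes were fitted. Among the fits that made it were the one with only the BMP2 and vehicle libraries (0.59) and the one with no filter on low counts (0.60). Leaving out 1 library, of any group, gave 0.44 to 0.74 for BMP2. Bcl3, an atypical IκB that works as a nuclear co-activator with p50 and p52, had 1.12, 2.25 and 2.16 CPM with BMP2, 4.34 and 5.34 CPM with TGFβ1, and 1.07 and 1.20 CPM with vehicle. It rose with TGFβ1 by 2.08 ± 0.38 (SE, adjusted p = 9.97e-04) and by 1.88 with the principal transcript offset. Of its exon bases 6.5% are shared with Gm16175 on the opposite strand.

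The regulators that did not pass include the deubiquitinating enzyme A20 and its partner. Tnfaip3, encoding A20, had at most 1.68 CPM in any library. Tnip1, which binds A20, had 16.6, 19.8 and 17.5 CPM with BMP2, 17.4 and 19.2 CPM with TGFβ1, and 19.7 and 16.1 CPM with vehicle, and its log2 fold change with TGFβ1 was 0.03. Nfkbie (IκBε) stayed at or under 2.06 CPM, Nfkbiz (IκBζ) lay between 4.89 and 8.68 CPM, and Birc3, the ubiquitin ligase cIAP2, lay between 1.47 and 3.05 CPM. Tnfaip2, a TNF-induced gene, had 22.3, 9.55 and 9.69 CPM with BMP2, where replicate 1 stood above the other 2, 13.8 and 17.9 CPM with TGFβ1, and 8.42 and 8.13 CPM with vehicle. Its log2 fold change with TGFβ1 was 0.94 ± 0.38 (SE) and missed the threshold at adjusted p = 0.0555, but passed with the principal transcript offset (1.06, adjusted p = 0.0274) and in DESeq2 (adjusted p = 0.0223).

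**Figure D4:**
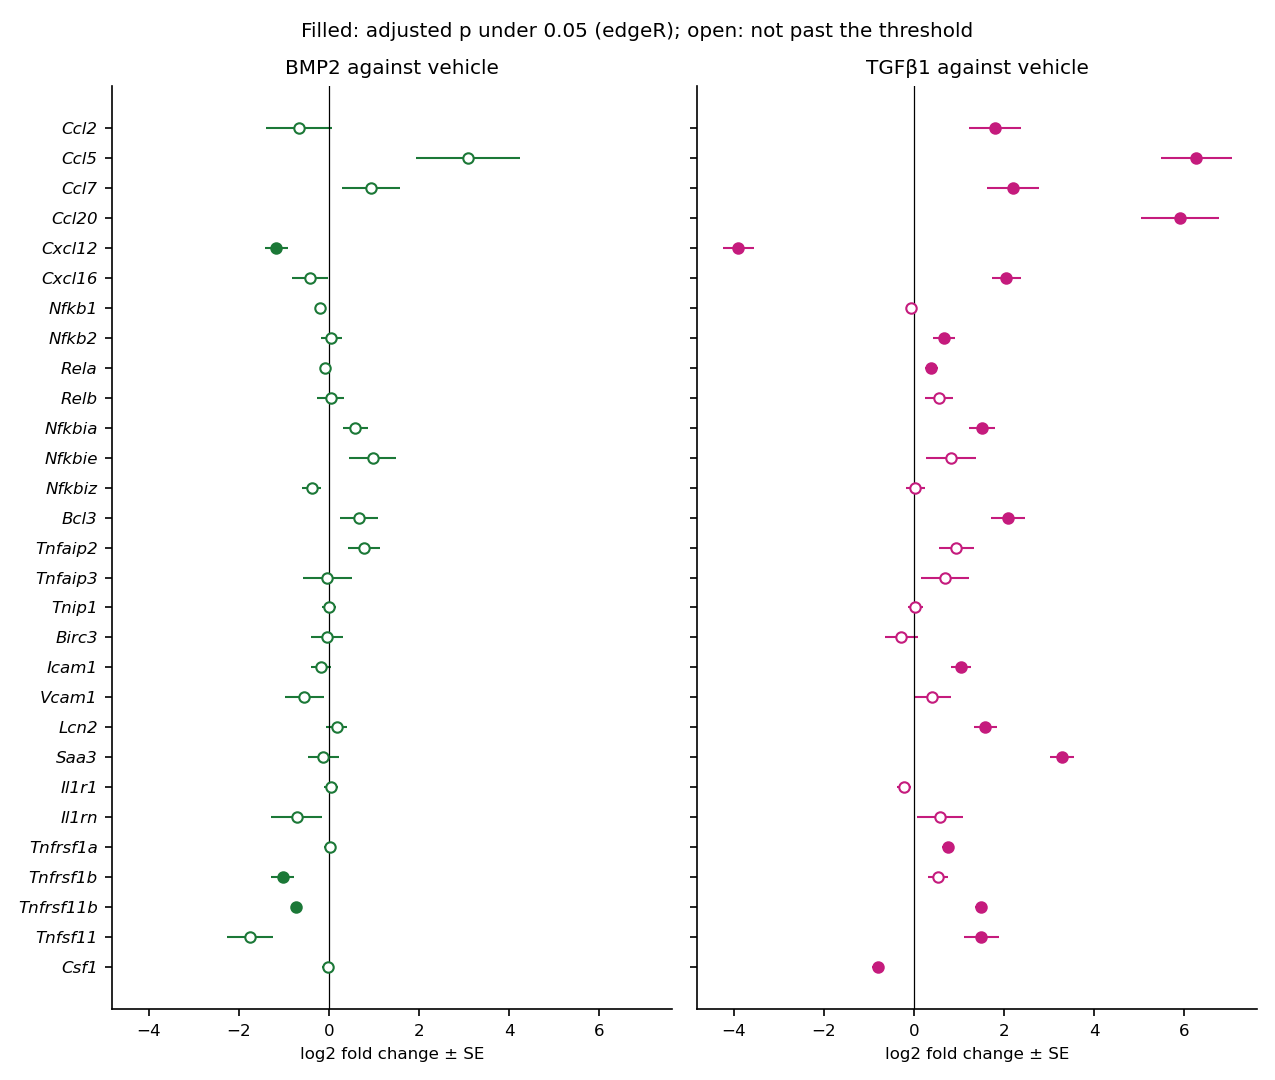
Log2 fold change with its standard error of the 29 tested members, in the order of their roles from chemokines at the top to receptors and growth factors at the bottom, for BMP2 against vehicle (left) and TGFβ1 against vehicle (right). Filled points have an adjusted p under 0.05: 3 with BMP2, all lower, and 17 with TGFβ1, of which 15 are higher. Ccl5 and Ccl20 have 1 vehicle count each, so their points depend on the fit's prior count, and Ccl20 is not drawn for BMP2.

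Of the effector genes, Lcn2, Saa3 and Icam1 were higher with TGFβ1, and the first 2 of these have short transcripts. Lcn2, encoding lipocalin 2, a siderophore-binding protein, had 61.4, 59.8 and 62.1 CPM with BMP2, 214 and 109 CPM with TGFβ1, and 52.2 and 56.2 CPM with vehicle. Saa3, serum amyloid A3, had 1.89, 1.33 and 1.22 CPM with BMP2, 14.3 and 17.7 CPM with TGFβ1, and 1.87 and 1.44 CPM with vehicle. Both were highest in the TGFβ1 libraries, with log2 fold changes of 1.58 ± 0.25 (SE, adjusted p = 3.51e-04) and 3.28 ± 0.27 (adjusted p = 3.03e-06). Beside genes with principal transcripts of like length, Saa3 differed by 0.31 (adjusted p = 0.41) and Lcn2 fell by 0.56 on the log2 scale (adjusted p = 0.00871). Beside genes of like deposited length both still passed as higher, so the reading depends on which length is used. Without TGFβ1 replicate 1 the Lcn2 value with no offset was 1.02. Icam1, the leukocyte adhesion molecule ICAM-1, is long enough to be little moved by the offset. It had 3.69, 4.11 and 3.01 CPM with BMP2, 8.24 and 8.40 CPM with TGFβ1, and 4.15 and 3.95 CPM with vehicle, and rose with TGFβ1 by 1.04 ± 0.22 (SE, adjusted p = 0.00227), or by 1.00 with the offset. On the other strand Gm47079 overlaps 11.7% of Icam1 exon bases. Vcam1, the adhesion molecule VCAM-1, ranged from 0.600 to 1.99 CPM and passed neither comparison with vehicle.

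Tnfrsf11b and Tnfsf11, a decoy receptor and the ligand it captures, were both highest with TGFβ1 and lowest with BMP2. Tnfrsf11b, encoding osteoprotegerin, had 92.9, 84.1 and 87.5 CPM with BMP2, 398 and 426 CPM with TGFβ1, and 141 and 152 CPM with vehicle. The ligands moved it in opposite directions: the log2 fold change against vehicle was -0.73 ± 0.11 (SE, adjusted p = 0.00222) with BMP2 and 1.49 ± 0.13 (adjusted p = 3.65e-06) with TGFβ1, or 1.48 with the principal transcript offset. Its call held without any single library, at -0.67 to -0.78 with BMP2 and 1.40 to 1.55 with TGFβ1. Tnfsf11, encoding RANKL, the osteoclast differentiation factor that osteoprotegerin binds, had 0.944, 0.398 and 0.188 CPM with BMP2, 4.78 and 5.57 CPM with TGFβ1, and 1.74 and 1.91 CPM with vehicle. Its groups did not overlap, and it rose with TGFβ1 by 1.49 ± 0.39 (SE, adjusted p = 0.0074), a call lost without vehicle replicate 1 (1.39, adjusted p = 0.0518). With BMP2 its log2 fold change was -1.76 ± 0.51 and missed the threshold at adjusted p = 0.051; DESeq2 called it (-1.78, adjusted p = 0.0406), as did the fit with the principal transcript offset (-1.75, adjusted p = 0.0431) and the fit without BMP2 replicate 1 (-2.68). BMP2 libraries hold 11, 3 and 2 Tnfsf11 counts. Per kilobase of deposited length, Tnfrsf11b stood above Tnfsf11 by a factor of 78.1, 168 and 369 with BMP2, 66.0 and 60.6 with TGFβ1, and 64.3 and 62.9 with vehicle, so this ratio was close in the TGFβ1 and vehicle libraries and higher in every BMP2 library.

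The receptors for TNF itself also differed between the ligands. Tnfrsf1a, the broadly expressed TNF receptor 1, had 36.6, 42.7 and 42.0 CPM with BMP2, 61.6 and 72.3 CPM with TGFβ1, and 42.1 and 37.4 CPM with vehicle. It rose with TGFβ1 by 0.75 ± 0.14 (SE, adjusted p = 9.46e-04), and its BMP2 and vehicle libraries overlapped. Tnfrsf1b, the inducible TNF receptor 2, had 3.43, 3.71 and 2.45 CPM with BMP2, 9.71 and 8.93 CPM with TGFβ1, and 5.35 and 7.54 CPM with vehicle. It fell with BMP2, where its log2 fold change was -1.03 ± 0.25 (SE, adjusted p = 0.022). The call was lost without BMP2 replicate 3 (-0.86) or vehicle replicate 2 (-0.75). With TGFβ1 it was 0.53 (adjusted p = 0.0777) and passed with the principal transcript offset (0.66, adjusted p = 0.0337).

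Csf1, encoding M-CSF, the survival factor of macrophages and osteoclast precursors, was among the most abundant members and fell with TGFβ1. It had 216, 194 and 185 CPM with BMP2, 109 and 123 CPM with TGFβ1, and 197 and 209 CPM with vehicle. The TGFβ1 libraries lay below all others, with a log2 fold change against vehicle of -0.81 ± 0.13 (SE, adjusted p = 4.83e-04) or -0.64 with the principal transcript offset, and the BMP2 and vehicle libraries overlapped. Il1r1, the signalling interleukin 1 receptor, had 10.2, 11.7 and 11.7 CPM with BMP2, 9.27 and 9.39 CPM with TGFβ1, and 11.2 and 10.5 CPM with vehicle, and passed neither comparison. Il1rn, the receptor antagonist, lay between 0.515 and 1.84 CPM and passed neither. Markers of osteoclasts, whose precursors respond to these factors, were almost wholly Ctsk, a protease gene, at 99.5 to 139 CPM with BMP2, 120 and 117 with TGFβ1, and 85.4 and 91.7 with vehicle. The other 6 summed to 1.98 to 2.78 CPM with BMP2, 5.74 and 5.04 with TGFβ1, and 4.01 and 2.63 with vehicle, with Calcr at 0 in every library; their part in these values was not tested.

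Set directly against TGFβ1, BMP2 libraries were higher for 2 of the 29 members and lower for 18, where 61.4% of all tested genes passed, 28.1% higher and 33.3% lower. Without the 4 that passed the filter only through TGFβ1 libraries, 2 of 25 were higher and 14 lower. Il1rn, 1 of these 14, had 0 BMP2 libraries past the filter's cut and passed through 1 TGFβ1 and 1 vehicle library, so the filter bears on its call too. The median was -0.92 over members and -0.02 over all tested genes on the log2 scale. The 2 that were higher were Csf1, by 0.78 ± 0.12 (SE, adjusted p = 3.01e-04), and Cxcl12, by 2.73 ± 0.36 (adjusted p = 7.96e-05). Leaving out TGFβ1 replicate 1 or 3 gave 2.15 or 3.63 for Cxcl12, both past the threshold. Among the lower ones the smallest adjusted p was that of Tnfrsf11b at -2.22 ± 0.11 (SE, adjusted p = 4.43e-08), Saa3 at -3.40 ± 0.23 (adjusted p = 3.87e-07) and Cxcl16 at -2.48 ± 0.29 (adjusted p = 3.56e-05). Tnfsf11 stood at -3.25 ± 0.40 (adjusted p = 4.96e-05), or -4.17 without BMP2 replicate 1. Tnfrsf1b stood at -1.56, Bcl3 at -1.42, Icam1 at -1.22 and Tnfrsf1a at -0.73. Ccl20 had 0 counts in BMP2 libraries and 121 in TGFβ1 libraries, and was at least 45.1-fold lower with BMP2, taking 3 counts over the BMP2 group as the floor. This bound is not corrected for the trend on transcript length.

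The length offset matters again for the short genes of this contrast. With the principal transcript offset 4 members were higher and 15 lower with BMP2 than with TGFβ1, where 28.1% and 29.3% of all tested genes were, and 15 of the 20 calls were kept in direction. Without the 4 members that passed the filter only through TGFβ1 libraries, 3 of 25 were higher and 14 lower with this offset. Saa3 stood at -0.54 (adjusted p = 0.0785), Ccl2 at -0.01 and Ccl5 at -0.31 (adjusted p = 0.572), against -3.40, -2.46 and -3.18 with no offset, and none of these passed with it, while Lcn2 (0.76) and Ccl7 (1.21) passed as higher with BMP2. With the offset for deposited length Saa3 and Lcn2 still passed as lower with BMP2. Nfkbia stood at -0.92 ± 0.25 (SE, adjusted p = 0.00749) with no offset and at -0.54 (adjusted p = 0.0463) with the principal transcript offset. Without TGFβ1 replicate 1 its value was -0.31 and did not pass. Several further calls with no offset did not hold when 1 library was left out, whichever of several libraries that was. Ccl7 (-1.26) was lost without BMP2 replicate 1 (-1.02), BMP2 replicate 3 (-1.01), TGFβ1 replicate 1 (-1.20) or TGFβ1 replicate 3 (-1.30). Nfkb2 (-0.61) was lost without BMP2 replicate 2 (-0.61), BMP2 replicate 3 (-0.49) or TGFβ1 replicate 3 (-0.36). Il1rn (-1.28) was lost without BMP2 replicate 1 (-1.16), BMP2 replicate 3 (-1.23) or TGFβ1 replicate 1 (-0.90), and Vcam1 (-0.95) in every fit that left out a library except the one without BMP2 replicate 3, with values of -0.67 to -1.30.

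Beyond the members, 50 other genes of the NF-κB pathway were examined, of which 41 could be tested. The upstream cytokines were at the floor: Il6 had 0 counts in all libraries, and Tnf and Il1a were at most 0.134 and 0.401 CPM. With BMP2 3 of the 41 (7.32%) rose and none fell in edgeR, against 5.33% and 6.15% of all tested genes, 4 were lower at an unadjusted p under 0.05, and DESeq2 called 2 higher and 0 lower. Without the genes that passed the filter only through 1 group, 2 of 38 (5.26%) rose and none fell in edgeR, near the share of all tested genes that rose. Ptgs2, encoding the prostaglandin synthase COX-2, had 105, 127 and 132 CPM with BMP2, 21.8 and 29.1 CPM with TGFβ1, and 11.5 and 7.66 CPM with vehicle. It rose with both ligands, by 3.67 ± 0.21 with BMP2 (SE, adjusted p = 1.10e-05) and by 1.42 ± 0.22 with TGFβ1 (adjusted p = 3.15e-04), and was higher with BMP2 than with TGFβ1 by 2.25 ± 0.19 (adjusted p = 2.26e-06). Tnfrsf12a, the TWEAK receptor Fn14, had 127, 121 and 119 CPM with BMP2, 1426 and 693 CPM with TGFβ1, and 36.8 and 39.4 CPM with vehicle. It rose by 1.68 ± 0.26 with BMP2 (SE, adjusted p = 0.00219) and by 4.80 ± 0.30 with TGFβ1 (adjusted p = 3.95e-07), or by 2.91 with TGFβ1 once the principal transcript trend was removed; leaving out TGFβ1 replicate 1 gave 4.19 with TGFβ1. Traf5, an adaptor of TNF receptors, was called with BMP2 (1.45 ± 0.37, adjusted p = 0.0285), but not without BMP2 replicate 2 or 3 or either vehicle replicate, with values of 1.28 to 1.63, and it passed the filter only through the BMP2 libraries. Ptges, which makes prostaglandin E2 from the COX-2 product, was at 1.47 ± 0.45 with BMP2 (adjusted p = 0.0644) and rose with TGFβ1 by 2.24 ± 0.43 (adjusted p = 0.00134). For Ptges 0 vehicle libraries passed the filter's cut, and it entered the test through the BMP2 and TGFβ1 libraries only, so the filter bears on these values too.

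With TGFβ1, 13 of the 41 rose (31.7%) and 11 fell (26.8%), near the 30.4% and 25.8% of all tested genes. With the principal transcript offset 12 (29.3%) and 6 (14.6%) did, against 26.3% and 24.2%. Of the 41, 2 passed the filter only through TGFβ1 libraries, so they had to be high there. Without the genes that passed only through 1 group, 11 of 38 rose (28.9%) and 10 fell (26.3%) with no offset. With the offset 10 (26.3%) and 5 (13.2%) of these 38 did. Il1rl1, the interleukin 33 receptor ST2, had 0.429, 0.398 and 0.376 CPM with BMP2, 12.9 and 17.6 CPM with TGFβ1, and 0.936 and 0.837 CPM with vehicle, a log2 fold change of 4.09 ± 0.30 for TGFβ1 (SE), and it passed the filter only through the TGFβ1 libraries. Il1rap, the accessory chain that the interleukin 1 and interleukin 33 receptors share, fell by 1.67 ± 0.31 (adjusted p = 9.75e-04). Within the IκB kinase complex the members moved apart: the catalytic Chuk (IKKα) fell by 1.09 ± 0.15 (adjusted p = 1.68e-04), the regulatory Ikbkg (NEMO) rose by 0.71 ± 0.14 (adjusted p = 0.00189) and the catalytic Ikbkb (IKKβ) was at 0.22 (adjusted p = 0.376). Map3k14, the NIK kinase of the non-canonical branch, rose by 1.43 ± 0.24 (adjusted p = 5.00e-04), and Nfkbib (IκBβ) by 1.41 ± 0.19 (adjusted p = 1.38e-04). Tlr2 rose by 1.44 ± 0.26 (adjusted p = 8.79e-04), and Tlr4 fell by 0.61 ± 0.21 (adjusted p = 0.0281), a call lost with the offset (-0.45) and without either TGFβ1 or either vehicle replicate (-0.59 to -0.69). Tab2, which links TRAF6 to the kinase TAK1, fell by 0.88 ± 0.12 (adjusted p = 1.02e-04), and Rel (c-Rel) was at 0.10 (adjusted p = 0.762). Il18, a short transcript of 860 bases, was at 1.98 with TGFβ1 with no offset and at -0.33 with it. In the direct contrast 10 of the 41 were higher (24.4%) and 16 lower (39%) with BMP2 than with TGFβ1, against 28.1% and 33.3% of all tested genes. Without the genes that passed the filter only through 1 group, 9 of 38 were higher (23.7%) and 14 lower (36.8%). The 14 still include a gene with 0 BMP2 libraries past the filter's cut, so the filter bears on that call too. Il1rl1 stood at -5.20 ± 0.28 (SE), Tnfrsf12a at -3.11 ± 0.24 (SE, adjusted p = 1.33e-06) and Il18 at -2.52 ± 0.25 (adjusted p = 8.96e-06), the last at -0.19 with the principal transcript offset.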

How the data were processed

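The authors deposited 1 whole-number count per gene name and library, with a gene length column whose unit is bases; the submitters' processing notes name mm10 and, without roles, STAR 2.4.2a, featureCounts of Subread, cutadapt and DESeq2. No annotation, strand setting or rule for multi-mapped reads is given. The deposited length is another measure than the transcript: it equalled the summed exon length in GENCODE M21 (mm10) for 93.63% of the 45612 names matched once, so principal transcript lengths were taken from that annotation.

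The counts were tested in edgeR 4.0.16 (R 4.3.3): filterByExpr, TMM scaling and 1 quasi-likelihood fit over all 7 libraries (4 residual degrees of freedom, common biological coefficient of variation 0.133), with 2-sided tests and Benjamini-Hochberg adjustment over 13367 genes at 0.05. CPM use TMM-scaled library sizes. The script was tested on simulated data. Alternatives were DESeq2 1.42.0, its size factors in edgeR, no filter, only the libraries compared, each library left out, the replicate number as a block, genes above 2000 bases only, and per-library lowess offsets on length. The principal transcript offset was added after the data had been seen, and so was its span: 0.15 replaced 0.3 after results of both were known, and both are given. Members and lists were chosen with earlier results of these data known. All 36 members are named; of the other pathway genes the text names the 4 with the smallest p per comparison and a fixed set.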

Additional observations from a re-analysis of the deposited data

How the results depend on the processing

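The counts of members passing the threshold were 3, 17 and 20 for BMP2 against vehicle, TGFβ1 against vehicle and BMP2 against TGFβ1. They became 7 for the first with no filter on low counts (3 higher: Ccl5, Nfkbia and Tnfaip2), and 9 for the second with the replicate block and the principal transcript offset together; the cause was not tested. Leaving out 1 library gave 1 to 4, 12 to 18 and 16 to 19 members, the 1 without vehicle replicate 2, and 2 to 3, 18 to 25 and 21 to 26 other pathway genes. With 3000 bases in place of 2000 dividing short from long genes, 12 rather than 5 short members were higher with TGFβ1. Correlations of the deviations of same-numbered libraries ran from -0.139 to -0.000945. Deviations were taken from the group mean, so in a group of 2 libraries they mirror each other. The check can therefore say little about a pairing, and a shared number is not a known pairing. With the replicate block 2, 15 and 18 members and 2, 20 and 22 other pathway genes passed. The block leaves fewer residual degrees of freedom. Counts under these alternatives are given without the shares of all tested genes, so they are no result about the members.

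Directions that reversed were all tied to a length offset. For TGFβ1 against vehicle they were Ccl2 (-0.64, -0.27 with the block, -0.46 with the wider span of 0.3), Ccl7 (-0.13 by deposited length, -0.25 by principal transcript, -0.07 wider), Nfkb1 (0.35 by deposited length with either span, -0.06 with no offset) and Lcn2 (-0.56, -0.50 with the block, -0.44 wider). For BMP2 against TGFβ1 they were Ccl7 (1.06 and 0.62 with the block by deposited length, 1.21 and 0.78 by principal transcript, 0.88 and 1.00 wider) and Lcn2 (0.76, 0.76 and 0.62). The wider span also moved Nfkb2 for TGFβ1 across the threshold by deposited length (adjusted p = 0.0579 against 0.0465), and for BMP2 against TGFβ1 Ccl5 by deposited length (0.0312 against 0.0567) and Nfkbia (0.0771 against 0.0463) and Ccl7 (0.085 against 0.0426) by principal transcript. Depth limits Ccl2, Ccl7, Tnfaip3, Vcam1, Il1rn and Nfkbie, each with under 100 counts over 7 libraries.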
